A study of Mus musculus with 12 samples.

Results

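Cd74, H2-Ob, Cd79b and Ighm are genes best known from B cells and other cells that present antigen, and all were read here in sorted naive CD8 T cells. They are 4 of the 12885 gene symbols in the deposited table, chosen by their RPKM values as B-associated genes whose levels differ between genotypes in opposite directions. The genotype differences are therefore a description and carry no test. Changes over time within a genotype were not the ground of that choice and were tested. They are built from the same values, so their p-values are not independent of the choice.

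RNA was measured in 12 libraries, 2 in each of 6 groups. The Zn4 groups came from mice homozygous for the mutation labelled Ikaros-Zn4-/-, which removes the fourth zinc finger of the DNA-binding domain of Ikaros, the transcription factor encoded by Ikzf1. Their cells were taken at rest (0 h) or after 12 h or 24 h with plate-bound antibodies to CD3 and CD28. The WT groups came from wild-type mice at the same times. No group held unstimulated cells cultured for 12 h or 24 h, so stimulation and time in culture cannot be told apart. All mice are labelled as 6 weeks old, female and C57Bl/6, and the cells as splenic, CD8+, high in CD62L and low or negative for CD44, obtained by negative selection and then sorting. No promoter or Cre restricts the mutation per the labels, so cells other than T cells in these mice may carry it too. Whether the 2 replicates of a group came from different animals is not stated, so p-values measure only the spread between these samples.

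In antigen-presenting cells, class II molecules are assembled with the invariant chain, the product of Cd74, which fills the peptide groove and guides them to the endosome. There the protease cathepsin S (Ctss) trims the invariant chain, and H2-DM exchanges its last fragment for antigen peptides. H2-O, a dimer of the H2-Oa and H2-Ob products, binds H2-DM and dampens that exchange. Cd79b encodes Ig-beta, a signalling chain of the B cell receptor, and Ighm encodes the constant region of the IgM heavy chain, a locus that T cells can transcribe in its unrearranged form. Mouse T cells are usually poor in surface class II.

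Each level below is in RPKM, reads scaled by the length of the gene and by the reads of the library. Library totals ran from 24263907 to 33389808 reads, and the RPKM steps returned whole reads (within 0.02 reads) for all 12885 genes, so reads are given where levels are low. The 14 CD8 T cell markers examined were all in the table, with summed levels of 3620 to 3720 RPKM in Zn4 cells and 3290 to 3420 RPKM in WT cells at 0 h. Ikzf1 averaged 133 ± 6.24 RPKM in Zn4 and 103 ± 16.9 RPKM in WT cells at 0 h (SD, n = 2 each), but a whole-gene level says nothing of the altered zinc finger and is no check of the genotype. The sex label does not hold for 3 libraries of 12 h. Both Zn4 libraries and WT replicate 1 held Y-linked transcripts at 12 h (sums of 4 genes: 21 and 43.4 RPKM in Zn4, 38.9 RPKM in WT replicate 1), against at most 0.0209 RPKM in all other libraries. Xist was 0.0258 RPKM in Zn4 replicate 1 and 0.0023 RPKM in WT replicate 1 at 12 h, while Zn4 replicate 2 had 24.3 RPKM beside its Y-linked transcripts and WT replicate 2 had 52.6 RPKM. The 12 h results of the 4 genes are therefore also given without both libraries numbered 1, although Zn4 replicate 2, which stays in, holds Y-linked transcripts as well.

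H2-Ob and H2-Oa encode the 2 chains of 1 dimer and their genotype differences at rest ran opposite ways, so their upstream sequences are shown (250 bases up to the RefSeq transcript start, GRCm38.p6, plus strand). They are H2-Ob at chr17:34238655-34238904 and H2-Oa at chr17:34092129-34092378. Capitals mark the X box core CTAGCAAC and the inverted CCAAT box ATTGG in H2-Ob, and the Y box core CTGATTGG, which contains ATTGG, in H2-Oa.
H2-Ob: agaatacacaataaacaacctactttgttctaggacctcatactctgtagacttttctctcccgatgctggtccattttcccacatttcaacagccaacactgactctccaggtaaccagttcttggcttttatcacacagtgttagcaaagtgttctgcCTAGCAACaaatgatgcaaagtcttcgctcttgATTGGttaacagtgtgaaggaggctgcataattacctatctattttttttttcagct
H2-Oa: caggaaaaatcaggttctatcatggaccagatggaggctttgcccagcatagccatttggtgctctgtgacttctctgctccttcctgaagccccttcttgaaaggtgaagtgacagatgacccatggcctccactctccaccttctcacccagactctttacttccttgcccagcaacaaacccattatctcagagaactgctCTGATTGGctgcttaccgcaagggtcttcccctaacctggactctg

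The ATTGG letters begin 57 bases upstream of the H2-Ob start and 43 bases upstream of the H2-Oa start, and 33.8% of 32851 RefSeq promoters of this length hold them on either strand. CTAGCAAC begins 90 bases upstream in H2-Ob and is in 1.13% of promoters. CTGATTGG begins 46 bases upstream in H2-Oa and is in 3.83%. GGGAA, the core that Ikaros binds, has 1 match in each on either strand, 173 bases upstream of H2-Ob and 20 bases upstream of H2-Oa, and is in 56.2% of promoters. Only exact letters were searched. H2-Oa also holds CCAGCAAC, which differs by 1 letter from CTAGCAAC, and H2-Ob holds TTGATTGG, which differs by 1 letter from CTGATTGG. The capitals therefore do not show that the boxes differ between the genes. The letters were chosen with these sequences in view, and a match is a description, not a binding site.

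**Figure D1:**
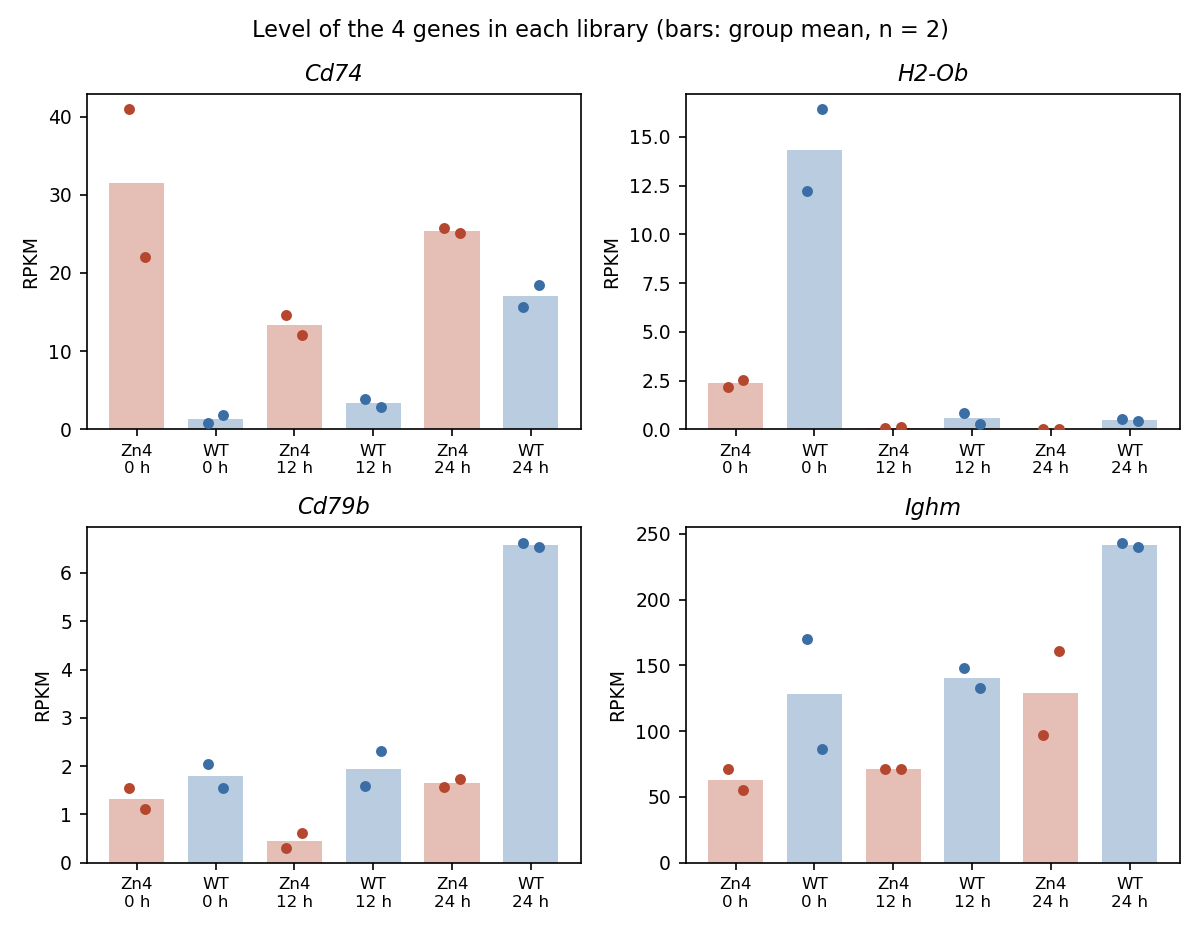
RPKM of Cd74, H2-Ob, Cd79b and Ighm in each library (points) with group means (bars, n = 2), Zn4 left of WT at 0, 12 and 24 h. Cd74 lies higher in Zn4 at each time, H2-Ob and Ighm lie lower in Zn4 at each time, and Cd79b lies lower in Zn4 at 12 h and 24 h but overlaps at 0 h.

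Cd74 (ENSMUSG00000024610.15, chr18:60803848-60812652, plus strand), the invariant chain gene, was the only gene of the 4 that lay higher in Zn4 cells. At 0 h it had 40.9 and 22 RPKM in Zn4 cells, against 0.803 and 1.88 RPKM in WT cells. At 12 h it had 14.6 and 12.1 RPKM in Zn4 cells, against 3.82 and 2.89 RPKM in WT cells. At 24 h it had 25.7 and 25.1 RPKM in Zn4 cells, against 15.6 and 18.5 RPKM in WT cells. The groups did not overlap at any time. The gap narrowed with time, as Zn4 levels fell from 0 h to 12 h and WT levels climbed from 0 h to 24 h. Ratios of the means, Zn4 over WT, were 23.4 at 0 h, 3.99 at 12 h and 1.49 at 24 h. The 0 h ratio became 39.2 without WT 0 h replicate 2 and ran from 16.4 to 30.5 without any other 1 library of 0 h. At 12 h the log2(RPKM + 1) difference was 1.73, and 1.76 without both libraries numbered 1. Of the 12 h libraries, the 2 with Y-linked transcripts and almost no Xist gave 14.6 RPKM in Zn4 and 3.82 RPKM in WT. The resting WT values rest on 29 and 65 reads, against 1511 and 838 reads in Zn4. A microRNA gene, Mir5107, lies within Cd74 on the same strand and is listed with 0 to 10 reads a library. In bulk RNA, fewer cells of a type and less RNA per cell cannot be told apart, here and for every level below.

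From 0 h to 12 h Cd74 moved down in Zn4 cells and up in WT cells (log2 of RPKM + 1, limma, Benjamini-Hochberg adjusted over 12726 genes). In Zn4 cells it fell by 1.12 at 12 h (SE 0.29, adjusted p = 0.00565; -1.24 without both 12 h libraries numbered 1, adjusted p = 0.0234) and its change at 24 h over 0 h was -0.24 (adjusted p = 0.473). In WT cells it was higher by 0.93 at 12 h (SE 0.29, adjusted p = 0.0157) and by 2.98 at 24 h (SE 0.29, adjusted p = 8.68e-06). From 12 h to 24 h it gained 0.88 in Zn4 cells (SE 0.29, adjusted p = 0.0401) and 2.05 in WT cells (SE 0.29, adjusted p = 0.000953). The gain in Zn4 cells was not called without any 1 of the 8 libraries of 12 h and 24 h (adjusted p 0.0523 to 0.177), nor without both 12 h libraries numbered 1 (1.01, adjusted p = 0.124). The WT rise at 12 h was not called without WT 0 h replicate 1 (0.59, adjusted p = 0.121) or WT 12 h replicate 1 (0.77, adjusted p = 0.0939), nor without both 12 h libraries numbered 1 (0.77, adjusted p = 0.119). Without Zn4 0 h replicate 2 the change of -0.67 at 24 h over 0 h in Zn4 cells passed the threshold (adjusted p = 0.0471).

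H2-Ob (ENSMUSG00000041538.16, chr17:34238903-34254414, plus strand), the beta chain of H2-O, had its highest level in resting WT cells. At 0 h it had 2.18 and 2.55 RPKM in Zn4 cells, against 12.2 and 16.4 RPKM in WT cells, a mean lower by a factor of 6.05 in Zn4. At 12 h it had 0.0677 and 0.0922 RPKM in Zn4 cells, against 0.849 and 0.275 RPKM in WT cells. At 24 h it was listed at 0 and 0.0254 RPKM in Zn4 cells, against 0.523 and 0.436 RPKM in WT cells. The libraries did not overlap at any time, although after stimulation both genotypes were near the bottom of the measurable range. In reads, Zn4 cells had 6 and 8 at 12 h against 65 and 29 in WT cells, and 0 and 2 at 24 h against 40 and 39 in WT cells. As a description, the ratio of the 24 h totals, 2 reads in Zn4 over 79 in WT, was 0.0263 scaled to depth. Without both 12 h libraries numbered 1 the 12 h difference on the log2(RPKM + 1) scale was -0.22, against -0.51 with all libraries.

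H2-Ob was lower after stimulation than at rest in both genotypes. On the log2(RPKM + 1) scale it fell by 1.64 at 12 h in Zn4 cells (SE 0.18, adjusted p = 2.6e-05) and by 3.30 in WT cells (adjusted p = 2.86e-07). At 24 h over 0 h it fell by 1.73 in Zn4 cells (adjusted p = 1.78e-05) and by 3.36 in WT cells (adjusted p = 2.29e-07). Without both 12 h libraries numbered 1 the 12 h changes were -1.62 in Zn4 cells (adjusted p = 0.00027) and -3.57 in WT cells (adjusted p = 1.53e-05). H2-Ob reached 1 RPKM only in libraries of 0 h and so passed the filter on low values only through the resting groups. Its calls over 0 h therefore support nothing, and the falls are a description. Between 12 h and 24 h the changes were -0.09 in Zn4 (adjusted p = 0.742) and -0.05 in WT (adjusted p = 0.872), neither called. The Zn4 fall started from the lower resting level, and its difference from the WT fall carries no test. As ratios of means the order ran the other way, since WT over Zn4 was 6.05 at 0 h, 7.03 at 12 h and 37.8 at 24 h. The later ratios rest on few reads, and the 12 h ratio was 3.44 without WT 12 h replicate 1.

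Cd79b (ENSMUSG00000040592.11, chr11:106311341-106314762, minus strand), which encodes Ig-beta, peaked at the lowest level of the 4. At 0 h it had 1.55 and 1.11 RPKM in Zn4 cells, against 2.05 and 1.54 RPKM in WT cells, and these ranges overlapped. At 12 h it had 0.298 and 0.609 RPKM in Zn4 cells, against 1.58 and 2.32 RPKM in WT cells. At 24 h it had 1.56 and 1.73 RPKM in Zn4 cells, against 6.62 and 6.53 RPKM in WT cells. The genotypes thus separated only after stimulation, by factors of the means of 4.3 at 12 h and 4 at 24 h, with Zn4 lower. The 12 h factor was 6.54 without Zn4 12 h replicate 2 and 3.2 to 5.12 without any other 1 library of 12 h. Reads at 24 h were 57 and 62 in Zn4 and 230 and 265 in WT. In Zn4 cells it fell by 0.68 at 12 h (SE 0.17, adjusted p = 0.00454) and then gained 0.87 from 12 h to 24 h (adjusted p = 0.00369), which left 0.19 at 24 h over 0 h (adjusted p = 0.33). In WT cells the change at 12 h was 0.07 (adjusted p = 0.712), and it was higher by 1.45 at 24 h over 0 h (adjusted p = 3.31e-05) and by 1.37 at 24 h over 12 h (adjusted p = 0.000453). Without both 12 h libraries numbered 1 the 12 h change was -0.53 in Zn4 cells (adjusted p = 0.0333) and 0.26 in WT cells (adjusted p = 0.248), and the genotype difference at 12 h was -1.05, against -1.02 with all libraries.

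Ighm (ENSMUSG00000076617.9, chr12:113418558-113422730, minus strand) was the most abundant of the 4 in every group. At 0 h it had 70.9 and 55.1 RPKM in Zn4 cells, against 170 and 86.1 RPKM in WT cells. At 12 h it had 71.4 and 71.1 RPKM in Zn4 cells, against 148 and 133 RPKM in WT cells. At 24 h it had 97.2 and 161 RPKM in Zn4 cells, against 243 and 240 RPKM in WT cells. Zn4 lay lower at each time with no overlap, by a nearly constant factor of the means (2.03, 1.97 and 1.87 at 0, 12 and 24 h). The resting value depended on the WT library kept, at -0.45 when WT 0 h replicate 1 was left out and -1.43 when WT 0 h replicate 2 was, against -0.94 on the log2(RPKM + 1) scale with both. At 24 h over 0 h Ighm was higher by 0.99 in Zn4 cells and by 0.99 in WT cells (SE 0.30 and adjusted p = 0.0136 in each). The Zn4 call ended without Zn4 0 h replicate 2 (0.81, adjusted p = 0.0809) or Zn4 24 h replicate 2 (0.63, adjusted p = 0.119), and the WT call without WT 0 h replicate 2 (0.50, adjusted p = 0.107) or WT 24 h replicate 1 (0.98, adjusted p = 0.0515). Both calls ended with median-ratio scaling, at 0.60 in Zn4 (adjusted p = 0.0942) and 0.59 in WT (adjusted p = 0.101), a scaling that lowered the median change of all genes by 0.31 at 24 h over 0 h in each genotype.

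At 12 h over 0 h the Ighm change was 0.19 in Zn4 (adjusted p = 0.596) and 0.21 in WT (adjusted p = 0.551). At 24 h over 12 h it was 0.80 in Zn4 (adjusted p = 0.0682) and 0.78 in WT (adjusted p = 0.0937). None of these passed with all libraries. Without both 12 h libraries numbered 1 the 12 h changes were 0.18 in Zn4 (adjusted p = 0.723) and 0.14 in WT (adjusted p = 0.796), and the genotype difference at 12 h was -0.90, against -0.97 with all libraries. The WT change at 12 h passed without WT 0 h replicate 1 (0.70, adjusted p = 0.0373). The Zn4 change at 24 h over 12 h passed without WT 0 h replicate 1 (adjusted p = 0.0169), WT 0 h replicate 2 (adjusted p = 0.0168) or Zn4 24 h replicate 1 (1.16, adjusted p = 0.0352). The WT change at 24 h over 12 h passed without either WT 0 h replicate (adjusted p = 0.0252 for each).

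The 4 joining segments that lie upstream of Ighm on chromosome 12, Ighj1 to Ighj4, were looked at after the Ighm values were seen and are given as reads with no test. Their summed reads were 4 and 8 in Zn4 against 34 and 26 in WT at 0 h. They were 4 and 3 in Zn4 against 22 and 22 in WT at 12 h. They were 3 and 11 in Zn4 against 47 and 54 in WT at 24 h. The Zn4 libraries lay below the WT libraries at each time, as Ighm did.

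**Figure D2:**
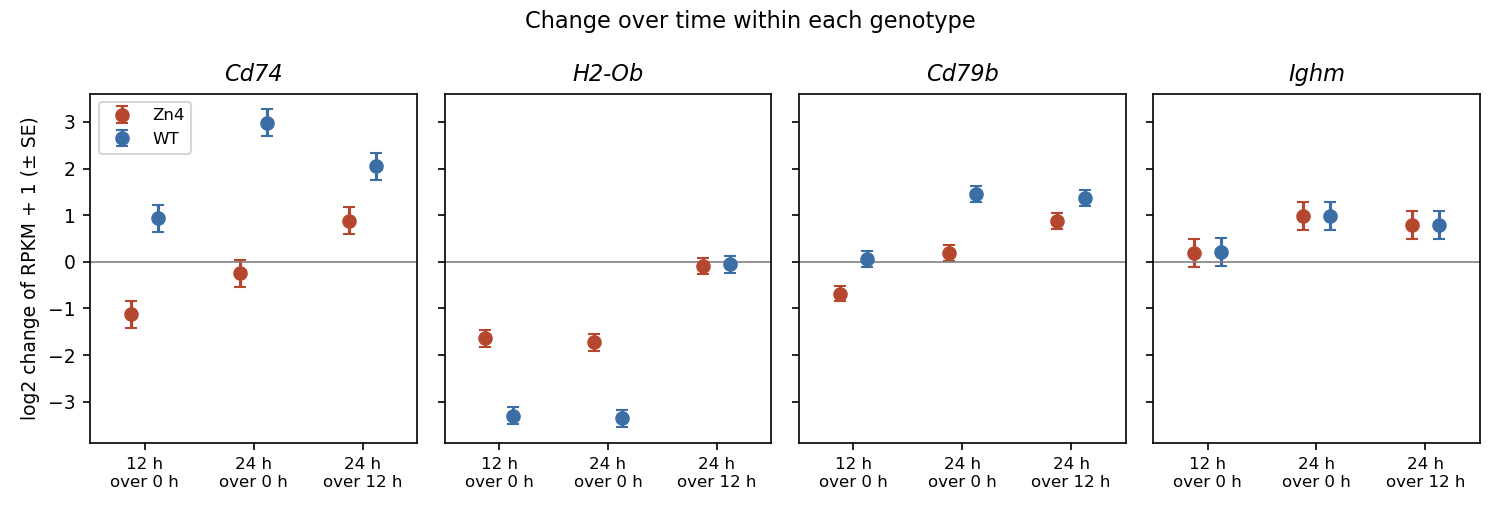
Log2 change of RPKM + 1 (± SE of the limma model) at 12 h over 0 h, 24 h over 0 h and 24 h over 12 h, Zn4 left of WT in each pair, for the 4 genes. Cd74 at 12 h over 0 h is at -1.12 in Zn4 and 0.93 in WT. The H2-Ob falls are deeper in WT on this scale only. Its ratios of means, WT over Zn4, were 6.05 at 0 h, 7.03 at 12 h and 37.8 at 24 h.

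Between genotypes, the libraries of 1 gene lay wholly above and those of 2 genes wholly below WT in Zn4 at 0 h, where 5.72% of all tested genes were called (3.76% higher, 1.96% lower). At 12 h 1 lay above and 3 below (13.1% of all genes called, 4.85% higher and 8.28% lower), and at 24 h 1 lay above and 3 below (19.4%, with 9.40% higher and 9.96% lower). Nothing is read from these counts, since these differences chose the genes. A lack of overlap between 2 and 2 libraries is also a weaker demand than a call, so the counts and the shares cannot be compared. The share of all genes without overlap was not counted. Over time, most of the table moved with stimulation. In Zn4 cells at 12 h over 0 h, 0 of the 4 were called higher and 3 lower, where 73.0% of all tested genes were called (43.5% higher, 29.6% lower). At 24 h over 0 h in Zn4 cells, 1 was higher and 1 lower (74.7% of all genes called, 48.7% higher and 26.0% lower), and at 24 h over 12 h, 2 were higher and 0 lower (33.6%, with 22.6% higher). In WT cells at 12 h over 0 h, 1 was higher and 1 lower (70.2% of all genes called, 43.1% higher and 27.0% lower). At 24 h over 0 h in WT cells, 3 were higher and 1 lower (73.9%, with 48.3% higher and 25.6% lower), and at 24 h over 12 h, 2 were higher and 0 lower (24.0%, with 17.0% higher and 6.94% lower). H2-Ob was the only gene of the 4 called lower at 24 h over 0 h in either genotype. It passed the filter on low values only through the resting groups, so its calls over 0 h support nothing.

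The order of the 6 groups differed among the genes. Cd74 ran from Zn4 at 0 h (31.5 ± 13.4 RPKM, SD, n = 2) and Zn4 at 24 h (25.4 ± 0.476), whose ranges overlapped, through WT at 24 h (17.0 ± 2.12), Zn4 at 12 h (13.4 ± 1.76) and WT at 12 h (3.36 ± 0.662) to WT at 0 h (1.34 ± 0.765). H2-Ob ran from WT at 0 h (14.3 ± 2.97 RPKM) and Zn4 at 0 h (2.37 ± 0.263) to the 4 stimulated groups, of which WT at 12 h (0.562 ± 0.405) and WT at 24 h (0.480 ± 0.0611) overlapped. Cd79b was highest in WT at 24 h (6.58 ± 0.0636 RPKM) and lowest in Zn4 at 12 h (0.454 ± 0.22), and WT at 12 h, WT at 0 h and Zn4 at 24 h lay between as neighbours with overlapping ranges. Ighm was highest in WT at 24 h (242 ± 1.78 RPKM) and lowest in Zn4 at 0 h (63.0 ± 11.2), and WT at 12 h, Zn4 at 24 h and WT at 0 h were again neighbours with overlapping ranges. Over the 12 libraries Pearson's r of log2(RPKM + 1) was 0.84 between Cd79b and Ighm and -0.60 between Cd74 and H2-Ob. The other pairs ran from -0.22 to 0.01. These are descriptions, since the libraries share groups and stimulation.

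By the same measure, among 6035 genes with an SD of at least 0.5, the closest to Cd74 were Slc43a1 (r = 0.929), Atp10a (0.925) and Lysmd2 (0.913). The closest to H2-Ob were Gabrr2 (0.982), Raver2 (0.975) and C920009B18Rik (0.974). The closest to Cd79b were Dhcr7 (0.963), Pfkm (0.962) and Unc93b1 (0.956). The closest to Ighm were Fuca2 (0.936), Pole2 (0.916) and 2610524H06Rik (0.907).

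The other genes of class II presentation were read from a list of 23, of which 15 were in the table and 13 were tested. At 0 h 2 were higher in Zn4 and 0 lower, where 5.72% of all tested genes were called (3.76% higher, 1.96% lower). H2-Oa, the alpha chain partner of H2-Ob, had 17.6 and 15.8 RPKM in Zn4 cells, against 8.95 and 7.75 RPKM in WT cells (log2 change 0.92, SE 0.20, adjusted p = 0.0289). H2-DMa, the alpha chain of H2-DM, had 27.6 and 27.0 RPKM in Zn4 cells, against 12.3 and 7.82 RPKM in WT cells (1.39, SE 0.25, adjusted p = 0.0118). Both lay in the direction of Cd74 and not in that of H2-Ob. The H2-Oa call ended without any 1 of the 6 WT libraries or either Zn4 0 h library (0.83 to 1.02, adjusted p 0.0511 to 0.128), and with a pseudocount of 0.1 RPKM (adjusted p = 0.261). The H2-DMa call ended without WT 0 h replicate 2 (1.09, adjusted p = 0.0643), Zn4 0 h replicate 1 (1.37, adjusted p = 0.0621) or Zn4 0 h replicate 2 (1.40, adjusted p = 0.0644). The ratio of H2-Oa to H2-Ob RPKM at 0 h was 8.07 and 6.2 in Zn4 cells, against 0.733 and 0.472 in WT cells. The more abundant chain of the pair at rest was thus H2-Oa in Zn4 and H2-Ob in WT.

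After stimulation the untested H2-Aa and H2-Ab1 lay higher in every Zn4 library than in every WT library at both times, on few reads. No tested gene of the list was called higher in Zn4. At 12 h 0 were higher and 1 lower (13.1% of all genes called), namely Ctss, with 13.8 and 13.7 RPKM in Zn4 cells against 26.8 and 32.4 RPKM in WT cells (-1.04, SE 0.13, adjusted p = 0.000836). At 24 h 0 were higher and 3 lower (19.4% of all genes called). Ctss had 21.6 and 27.1 RPKM in Zn4 cells against 47.3 and 50 RPKM in WT cells (-0.98, adjusted p = 0.000851). H2-Oa had 0.357 and 1.01 RPKM in Zn4 cells against 3.39 and 3.09 RPKM in WT cells (-1.36, SE 0.20, adjusted p = 0.00183). Rfx5, a subunit of the X box binding complex, was lower in Zn4 (-0.53, adjusted p = 0.00928), a call that ended without WT 24 h replicate 1 (adjusted p = 0.062), WT 24 h replicate 2 (adjusted p = 0.0765) or Zn4 24 h replicate 1 (adjusted p = 0.0504). At 24 h the 2 chains of H2-O were therefore both lower in Zn4. The difference in response to stimulation is the Zn4 change minus the WT change. At 12 h over 0 h it was called below 0 for H2-DMa, H2-Oa and Ctss and above 0 for 0 of the list's tested genes. Of all genes, 5.12% were called there (1.54% higher, 3.58% lower). The same 3 genes were called, again below 0, at 24 h over 0 h, where 8.24% were called (3.88% higher, 4.35% lower). Those of Ctss (-1.35 at 12 h, adjusted p = 0.00401; -1.28 at 24 h, adjusted p = 0.0043) and of H2-Oa at 24 h (-2.28, adjusted p = 0.00281) were called under all 19 alternatives. The list's median log2 difference between genotypes was 0.04 at 0 h, -0.05 at 12 h and -0.10 at 24 h, beside -0.02, -0.01 and -0.02 over all tested genes.

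The class II molecule's own chains, H2-Aa and H2-Ab1, were under the filter of 1 RPKM in 2 libraries and were not tested. H2-Aa had 104 and 34 reads in Zn4 cells at 0 h (2.12 and 0.672 RPKM), against 4 and 1 in WT cells. H2-Ab1 had 124 and 44 reads in Zn4 cells at 0 h (2.89 and 0.996 RPKM), against 4 and 4 in WT cells. Replicate 1 of the resting Zn4 cells was the higher for H2-Aa, H2-Ab1 and Cd74 alike. At 24 h H2-Aa had 14 and 36 reads in Zn4 cells against 2 and 5 in WT cells, while Cd74 had 25.7 and 25.1 RPKM in the same Zn4 libraries. The ratio of Cd74 to H2-Aa RPKM was 19.3 and 32.8 in Zn4 cells at 0 h. At 24 h it was 88.2 and 32.6 in Zn4 cells, against 354 and 197 in WT cells, where H2-Aa had 2 and 5 reads. H2-Eb1, Ciita, H2-DMb1 and H2-DMb2 were not analysed here.

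**Figure D3:**
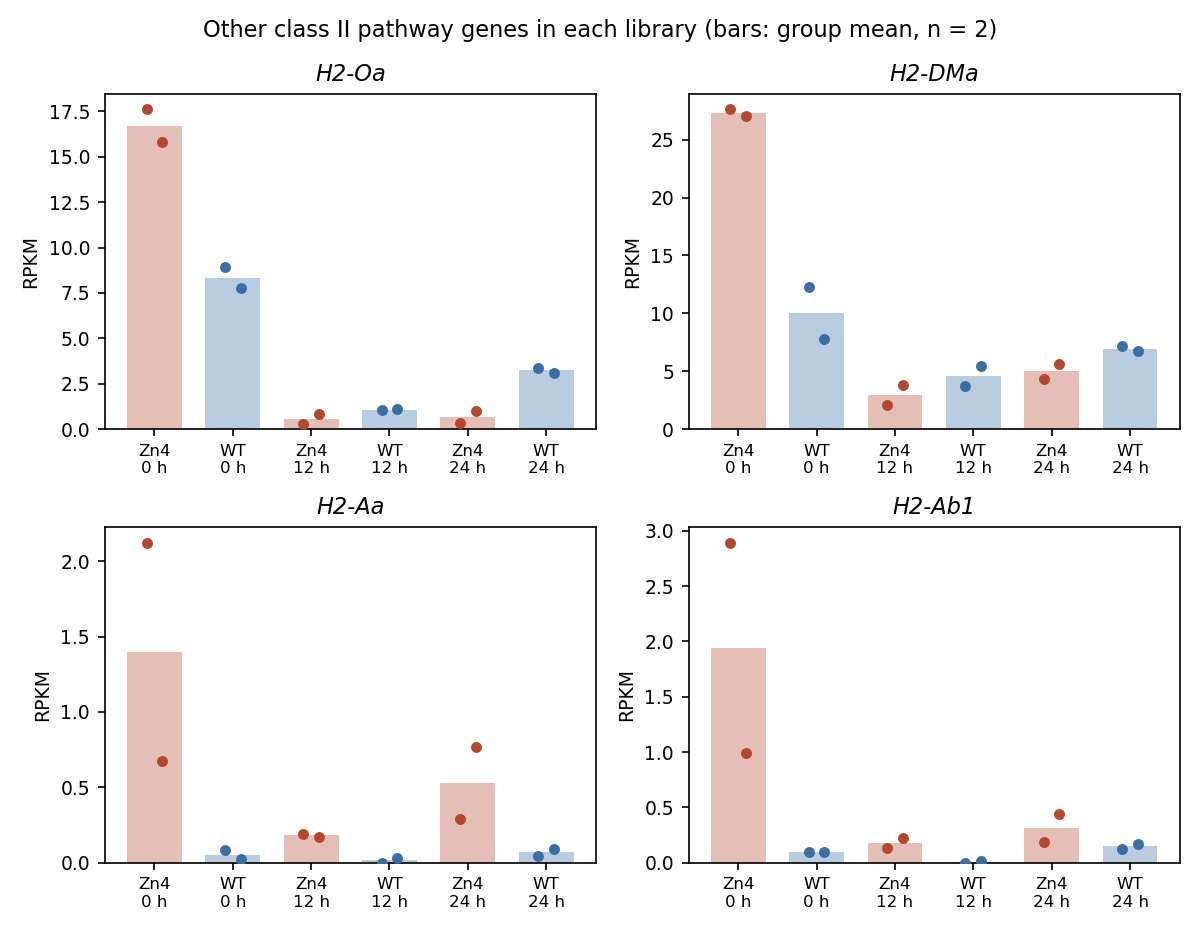
RPKM of the class II pathway genes H2-Oa, H2-DMa, H2-Aa and H2-Ab1 in each library (points) with group means (bars, n = 2), Zn4 left of WT at 0, 12 and 24 h. At 0 h every Zn4 library lies above every WT library in all 4 panels, and at 24 h H2-Oa lies lower in Zn4.

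The B cell receptor list held 28 genes, of which 5 were in the table and all 5 were tested. At 0 h 2 were higher in Zn4, namely Cd72, an inhibitory co-receptor (0.94, adjusted p = 0.00988), and Cd81, a tetraspanin (0.93, adjusted p = 0.0307), and 1 was lower (5.72% of all tested genes called). The gene that was lower, Pik3ap1, encodes an adaptor that brings PI3K to the receptor, and it was lower in Zn4 at all times. It had 1.40 and 1.43 RPKM in Zn4 cells against 3.2 and 2.5 RPKM in WT cells at 0 h (-0.67, adjusted p = 0.0159). It had 1.52 and 1.94 RPKM in Zn4 cells against 3.95 and 4.55 RPKM in WT cells at 12 h (-0.94, adjusted p = 0.00151). It had 1.22 and 1.33 RPKM in Zn4 cells against 7.90 and 8.92 RPKM in WT cells at 24 h (-2.04, adjusted p = 1.96e-05). Its ratio of means, WT over Zn4, was 2.01 at 0 h, 2.45 at 12 h and 6.58 at 24 h. Dapp1, an adaptor downstream of PI3K, was the other gene lower at 12 h (-0.66, adjusted p = 0.0062), where 0 were higher (13.1% of all tested genes called). Plcg2, the phospholipase of the B cell receptor pathway, was higher in Zn4 at 24 h (1.36, SE 0.17, adjusted p = 0.00061), so that 1 was higher and 1 lower at that time (19.4% of all tested genes called). The list's median log2 difference was 0.11, 0.03 and 0.05 at 0, 12 and 24 h. The Cd72 call ended without Zn4 0 h replicate 1 (0.84, adjusted p = 0.0675). The Cd81 call ended without WT 0 h replicate 1, either Zn4 0 h replicate or either WT 24 h replicate (0.70 to 1.09, adjusted p 0.0543 to 0.175). The Pik3ap1 call at 0 h ended without WT 0 h replicate 1 (-0.53, adjusted p = 0.0794) or either Zn4 0 h replicate (adjusted p 0.0765 and 0.0774). The Dapp1 call ended without WT 12 h replicate 2 (-0.57, adjusted p = 0.0628) or Zn4 12 h replicate 1 (-0.56, adjusted p = 0.0635), and without both 12 h libraries numbered 1 (adjusted p = 0.105). Both 12 h libraries numbered 1 could be left out with the 12 h calls of Ctss and Pik3ap1 kept.

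The list of B lineage transcription and recombination factors held 20 genes, of which 14 were tested. At 0 h 3 were higher in Zn4 and 0 lower (5.72% of all tested genes called). Prdm1, the regulator of plasma cell and effector T cell differentiation, averaged 3.70 ± 1.15 RPKM in Zn4 and 0.748 ± 0.5 RPKM in WT cells (SD, n = 2 each, log2 difference 1.43). Irf4, which T cell receptor signals induce, averaged 88.5 ± 29.9 RPKM in Zn4 and 31.0 ± 20.2 RPKM in WT cells (1.60, adjusted p = 0.0385). Dntt, the polymerase that adds junctional nucleotides, differed by 0.84. Apart from the resting Zn4 libraries, Prdm1 and Dntt reached 1 RPKM in WT 0 h replicate 1 alone. They passed the filter on low values only with the group where they were high, so their calls support nothing. The Irf4 call ended without any library but WT 0 h replicate 1 (adjusted p 0.0517 to 0.174), and the Dntt call without WT 0 h replicate 2 (adjusted p = 0.0622) or Zn4 0 h replicate 1 (adjusted p = 0.0761).

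At 12 h 1 factor was higher in Zn4 and 3 were lower (13.1% of all tested genes called). Pou2f2, the octamer factor Oct-2, was higher by 0.76 (adjusted p = 0.0307), and Id3 (-1.95, adjusted p = 0.0139), Lef1 (-0.70, adjusted p = 0.00666) and Bach2 (-0.49, adjusted p = 0.00509) were lower in Zn4 than in WT. All of these calls ended without both 12 h libraries numbered 1, with adjusted p from 0.0692 for Lef1 to 0.281 for Pou2f2. The Lef1 and Bach2 calls ended without WT 12 h replicate 2 or Zn4 12 h replicate 1 (adjusted p 0.0535 to 0.0678), the Id3 call without any 1 library of 12 h (0.0516 to 0.103), and the Pou2f2 call without any 1 library of 12 h or either WT library of 24 h (0.0534 to 0.168).

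At 24 h 3 factors were higher in Zn4 and 2 were lower (19.4% of all tested genes called). Pou2af1, the octamer coactivator, had 13.2 and 21.7 RPKM in Zn4 cells against 42.5 and 41.4 RPKM in WT cells (-1.26, SE 0.18, adjusted p = 0.00128), and Id3 averaged 19.6 ± 9.31 RPKM in Zn4 and 55.8 ± 1.67 RPKM in WT cells (SD, n = 2 each; -1.54, adjusted p = 0.0293). Tcf3, Spib and Irf8 were the 3 that were higher, Spib by 1.00 and Irf8 by 0.73 (adjusted p = 0.0435). Spib had 2.74 and 1.16 RPKM in Zn4 cells against 0.435 and 0.398 RPKM in WT cells. It passed the filter on low values only through the Zn4 libraries of 24 h, so its call supports nothing. The Id3 call ended without either WT 24 h library or Zn4 24 h replicate 1 (0.122 to 0.222) and without both 12 h libraries numbered 1 (0.0739), and the Irf8 call without any 1 library other than the WT 12 h pair and Zn4 24 h replicate 1 (0.0512 to 0.207). The list's median log2 difference was 0.24, 0.10 and 0.24 at 0, 12 and 24 h.

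**Figure D4:**
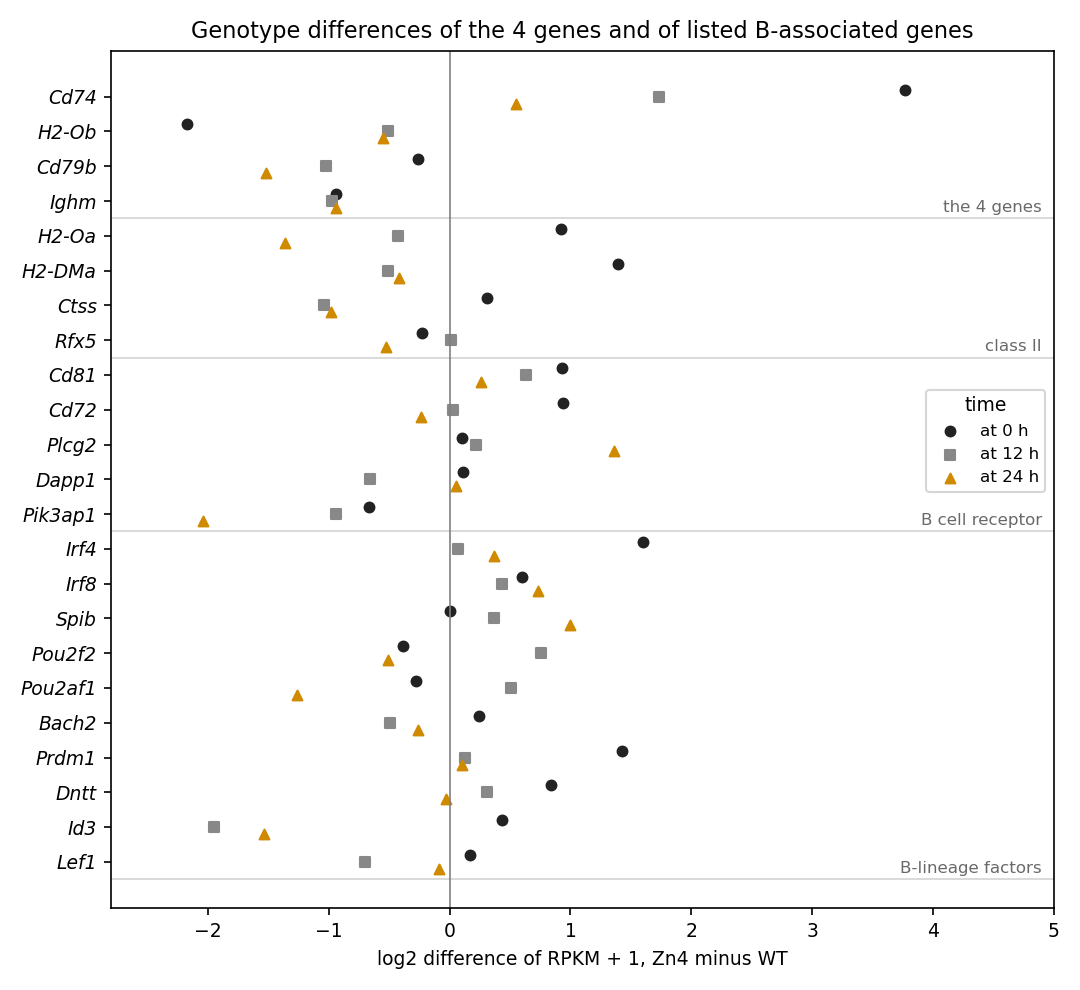
Log2 difference of RPKM + 1, Zn4 minus WT, at 0 h (circles), 12 h (squares) and 24 h (triangles) for the 4 genes and for 19 genes of the class II, B cell receptor and B-lineage factor lists. Cd74 stands to the right at 0 h with 3.77 and H2-Ob to the left with -2.17, and for Pik3ap1 the 24 h difference is the furthest left of the 3 times. For Cd79b it is so on this scale only, since the ratios of means, 4.3 at 12 h and 4 at 24 h, run the other way.

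Markers of other cell types that a sorted sample could hold moved too, and their part in the values above was not tested. Of 20 B cell markers, 5 were in the table (Cd72, H2-Aa, H2-Ab1, Pou2af1 and Spib), and the others, Ms4a1, Cd79a, Pax5 and Igkc among them, were not analysed here. Their summed level was 17.5 to 22.4 RPKM in Zn4 against 10.2 to 13.6 RPKM in WT at 0 h, 77.8 to 82.7 RPKM in Zn4 against 54.6 to 56.8 RPKM in WT at 12 h, and 17.4 to 24.9 RPKM in Zn4 against 43.2 to 44.3 RPKM in WT at 24 h. Pou2af1 made up most of the 12 h sums, with 81.2 and 76.3 RPKM in Zn4 and 53.8 and 55.8 RPKM in WT. Spib had 1 read in all in resting Zn4 cells and 1 in resting WT cells.

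Of 21 myeloid and dendritic cell markers, 6 were in the table, with sums of 19.4 to 21.2 RPKM in Zn4 against 14.9 to 16.5 RPKM in WT at 0 h. They summed to 21.7 to 26.6 RPKM in Zn4 against 24.3 to 24.7 RPKM in WT at 12 h, and 36.9 to 39.4 RPKM in Zn4 against 29.5 to 30.1 RPKM in WT at 24 h. Itgam, an integrin chain of myeloid and activated cells, had 1.04 and 1.16 RPKM in resting Zn4 cells, against 0.19 and 0.179 RPKM in resting WT cells, and at most 0.083 RPKM in every stimulated library. Of 14 natural killer and gamma-delta T cell markers, 5 were in the table, with sums of 37.5 to 39.2 RPKM in Zn4 against 4.72 to 5.47 RPKM in WT at 0 h. Cd163l1, a scavenger receptor of gamma-delta T cells, supplied most of it, with 34.1 ± 0.695 RPKM in Zn4 and 0.473 ± 0.0992 RPKM in WT (SD, n = 2 each). Itgam and Cd163l1 passed the filter on low values only through the resting Zn4 libraries, so their tests support nothing and their p-values are not given. The sums of the 5 natural killer and gamma-delta T cell markers were 9.94 to 13.4 RPKM in Zn4 against 8.95 to 11.6 RPKM in WT at 12 h, and 14.1 to 21 RPKM in Zn4 against 12.2 to 13.0 RPKM in WT at 24 h. Of 6 CD4 T cell markers, 4 were in the table, with sums of 32.9 to 47.7 RPKM in Zn4 against 18.9 to 33.6 RPKM in WT at 0 h. They summed to 149 to 153 RPKM in Zn4 against 101 to 113 RPKM in WT at 12 h, and 186 to 222 RPKM in Zn4 against 124 to 125 RPKM in WT at 24 h. Ctla4 supplied most of the 0 h sums and Il2ra most of the others. Il2ra averaged 147 RPKM in Zn4 and 101 RPKM in WT at 12 h, and 194 and 107 RPKM at 24 h. Cd4 itself averaged 1.33 RPKM in Zn4 and 1.11 RPKM in WT at 0 h, and was at most 0.288 RPKM in every stimulated library. Cd40lg was lower in Zn4 at 12 h, with means of 0.373 RPKM in Zn4 and 1.13 RPKM in WT. The sums of the 14 CD8 T cell markers were 2550 to 2780 RPKM in Zn4 against 3050 to 3190 RPKM in WT at 12 h, and 2970 to 3690 RPKM in Zn4 against 2970 to 3080 RPKM in WT at 24 h. Of these markers 1 was higher and 1 lower in Zn4 at 0 h (5.72% of all tested genes called), 1 was higher and 5 were lower at 12 h (13.1% of all tested genes called), and 3 were higher and 6 lower at 24 h (19.4%).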

How the data were processed

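The authors aligned single-end reads of stranded mRNA libraries with TopHat2 2.0.12 and assigned reads to genes using HTSeq 0.6.1 on mm10 (GRCm38), per the submitters' processing notes; the strand setting is not given in the sources used here. The deposited values are RPKM. Of 12892 lines, 7 repeated a symbol and the first was kept (12885 genes). No listed gene has its highest group mean under 1.0005 RPKM. Whole reads were recovered from the RPKM steps (tolerance 0.02 reads) for 100.0% of genes.

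The 12726 genes that reached 1 RPKM in 2 or more libraries were fitted as log2(RPKM + 1) in R 4.3.3 with limma 3.58.1 (trended empirical Bayes, 1 mean per group over all 12 libraries, 6 residual degrees of freedom). P-values were two-sided and Benjamini-Hochberg adjusted within each comparison, and those under 0.05 were called. A fold change on this scale understates the change of low genes. The fit was also run on simulated reads with known changes in Zn4 at 24 h only, in genes well above the floor. That run does not cover low genes or the response over time, and nothing here rests on it. Loci come from GENCODE M21 (GRCm38) and promoters from RefSeq.

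The 4 genes and the gene lists were chosen with earlier results of these data known. Named genes are the 4, set class II and B cell genes, up to 4 called genes per list and time by size of the genotype difference, and the 3 closest by Pearson's r; the joining segments, Tcf3 and Mir5107 are exceptions named after their values were seen. Alternatives were a pseudocount of 0.1 RPKM, no filter, quantile normalization, median-ratio scaling, a replicate block, limma-voom on the recovered reads, and leaving out libraries.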

Additional observations from a re-analysis of the deposited data

Results flagged for a closer look

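Cd74 moved in opposite directions with stimulation. At 12 h over 0 h it fell by 1.12 on the log2(RPKM + 1) scale in Zn4 cells and was higher by 0.93 in WT cells, with each Zn4 library at 12 h below each at 0 h and each WT library at 12 h above each at 0 h. The difference between genotypes was not tested, because genotype differences chose the gene. The 0 h values that entered that choice are also the baseline of both changes.

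For other named genes the difference in response itself, Zn4 change minus WT change over 0 h, was tested as an interaction in limma. Over all tested genes 5.12% passed at 12 h (1.54% above 0, 3.58% below) and 8.24% at 24 h (3.88% above, 4.35% below). Of the named genes' differences 42 of 88 passed, in 29 of 44 genes, 32 of them below 0 and 10 above. Nothing is read from these counts, which the choice of genes fixes in part, since genes were named for passing a genotype test at some time, for likeness to the 4, or as class II and B cell genes. Cd163l1, Itgam, Gabrr2 and Raver2 also passed the filter on low values through 1 group only. Prdm1 and Dntt passed it through the resting Zn4 libraries and WT 0 h replicate 1, and Zbtb46 through Zn4 libraries only. The differences in response of all of these genes support nothing, including those called under the alternatives below. In the class II list the differences were -1.36 at 12 h and -2.28 at 24 h for H2-Oa, -1.9 and -1.8 for H2-DMa, and -1.35 and -1.28 for Ctss. In the B cell receptor list they were -0.77 for Dapp1 at 12 h, and -1.18 for Cd72, -1.38 for Pik3ap1 and 1.25 for Plcg2 at 24 h. Among B-lineage factors they were -0.73 at 12 h and -0.5 at 24 h for Bach2, -1.31 and -1.33 for Prdm1 (0.14 and 0.33 with voom on reads, the opposite direction), 1.14 for Pou2f2 and -0.87 for Lef1 at 12 h, and -0.98 for Pou2af1 and -0.87 for Dntt at 24 h.

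Among markers of other cells they were -4.1 at 12 h and -4.13 at 24 h for Cd163l1, -0.83 and -0.91 for Itgam, and 1.43 for Zbtb46 at 24 h. Among CD8 T cell markers they were -1.02 at 12 h and -0.95 at 24 h for Cd3d, -1.02 and -1.13 for Cd3g, -0.77 for Lat at 12 h, and 1.6 for Il7r and 0.9 for Thy1 at 24 h. Genes picked for likeness to the 4 share their pattern by choice, and their differences are no independent evidence. They were -1.86 at 12 h and -2.05 at 24 h for Slc43a1, -0.66 for Atp10a and -1.39 for Lysmd2 at 24 h, 0.95 and 1.01 for Gabrr2, 0.6 and 0.64 for C920009B18Rik, 0.74 for Raver2 at 12 h, -0.93 for Dhcr7 at 12 h, and -0.97 and -1.07 for Pfkm.

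Of the 42, 9 were called under all 19 alternatives, namely Ctss, Slc43a1 (both times each) and Cd3d, H2-Oa, Itgam, Lysmd2 and Pik3ap1 (24 h). A further 6 were called without each library in turn but not under every other alternative, namely Cd163l1 and Gabrr2 (both times each) and Cd3d and Itgam (12 h). The other 27 each ended without at least 1 library, and in each of them that included a library of 0 h or of the later time compared.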

How the results depend on the processing

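With 2 libraries per group, counts near the threshold moved with the libraries kept. Changes of the 4 genes that ended or began a call were these (log2, adjusted p). With a pseudocount of 0.1 RPKM, Cd74 at 24 h over 12 h in Zn4 was 0.93 (0.0843). With quantile normalization it was 0.76 (0.0811), and Ighm was 0.63 at 24 h over 0 h in Zn4 (0.0688), 0.84 at 24 h over 12 h in Zn4 (0.0447) and 0.88 in WT (0.0490). With median-ratio scaling Cd74 was 0.77 at 24 h over 12 h in Zn4 (0.0734) and 0.73 at 12 h over 0 h in WT (0.0503), and Ighm at 24 h over 0 h was 0.60 in Zn4 and 0.59 in WT. Without both 12 h libraries numbered 1 Cd74 was 1.01 in Zn4 at 24 h over 12 h and 0.77 in WT at 12 h over 0 h. The cause was not tested.

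Leaving out 1 library gave these ranges: Cd74 -0.67 to 0.20 (Zn4, 24 h over 0 h), 0.76 to 1.01 (Zn4, 24 h over 12 h) and 0.59 to 1.26 (WT, 12 h over 0 h); Ighm 0.63 to 1.35 (Zn4, 24 h over 0 h), 0.44 to 1.16 (Zn4, 24 h over 12 h), -0.28 to 0.70 (WT, 12 h over 0 h), 0.50 to 1.48 (WT, 24 h over 0 h) and 0.71 to 0.85 (WT, 24 h over 12 h). Genotype differences ranged from 3.34 to 4.20 for Cd74 at 0 h, from -0.78 to -0.24 for H2-Ob at 12 h, from -1.20 to -0.84 for Cd79b at 12 h and from -1.43 to -0.45 for Ighm at 0 h.

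A pseudocount of 0.1 RPKM and voom on reads, which damp low values less, widened the genotype differences, to 4.49 and 4.60 for Cd74 at 0 h, -2.53 and -2.58, -1.73 and -2.45, and -2.37 and -5.11 for H2-Ob at 0, 12 and 24 h, and -1.93 and -2.17, and -1.94 and -1.99 for Cd79b at 12 h and 24 h. Without both 12 h libraries numbered 1, H2-Ob at 12 h was -0.22. The direction of the 12 genotype differences was the same under all 19 alternatives.

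Counts of called genes without both 12 h libraries numbered 1, then over single libraries left out, were 1981 and 2413 to 4658 in Zn4 at 24 h over 12 h (4273 with all), 1201 and 1285 to 3391 in WT (3052), 453 and 396 to 806 between genotypes at 0 h (728), 437 and 737 to 1837 at 12 h (1671), 133 and 232 to 784 for the difference in response at 12 h (651), and 556 and 311 to 1438 at 24 h (1048). At 24 h between genotypes single libraries gave 1045 to 2771 (2464). Fewer libraries were fitted in these. Median-ratio scaling lowered the median change of all genes by 0.21 (Zn4) and 0.22 (WT) at 12 h and by 0.31 at 24 h over 0 h, and the share of called genes that were higher became 49.1% and 49.1%, and 50.4% and 50.4%, against 59.5% and 61.5%, and 65.1% and 65.4%. With quantile normalization the shares were 52.3% and 51.1%, and 50.3% and 50.1%. At 24 h over 12 h the share was 67.3% in Zn4 and 71.1% in WT, against 45.8% and 51.0% with quantile normalization and 52.9% and 54.4% with median-ratio scaling, and for the difference in response at 12 h it was 30.1%, against 17.4% with voom. Among other genes, the difference in response of Prdm1 reversed with voom, to 0.14 at 12 h and 0.33 at 24 h (adjusted p = 0.971 and 0.922).

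The replicate number as a replicate block called 753, 1716 and 2531 genes between genotypes at 0, 12 and 24 h, and ended no call of the 4. Deviations of same-numbered libraries correlated at 0.61 between Zn4 and WT at 0 h, so same-numbered resting libraries deviated together across genotypes. The other 14 pairs of groups ran from -0.115 to 0.192, and the labels pair none.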
